A study of Mus musculus with 6 samples.

Results

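The genes described here are 10 genes that immunologists read as marks of antigen-presenting cells, measured in CD8+ T cells recovered from mouse pancreatic tumours. The genes were listed by name, whatever their values: H2-Aa, H2-Ab1, H2-Eb1, Cd74, Ciita, Zbtb46, Flt3, Itgax, Xcr1 and Batf3. Each matched 1 of the 55471 gene IDs in the deposited tables, and 9 of the 10 passed the filter on low counts and were tested, Flt3 being the exception. The cells were OT-I T cells with a Cas9 knock-in at Rosa26, whose receptor recognises an ovalbumin peptide. They were transduced with a lentivirus that carried either a guide against the fatty acid elongase gene Elovl1 (sgElovl1, 3 libraries) or a non-targeting guide (sgNT, 3 libraries), together with the surface reporter CD90.1. The cells were transferred into mice with orthotopic tumours of KPC_OVA, a pancreatic cancer line that makes ovalbumin. All recipients of both groups received anti-PD-1 from the day after transfer, and CD90.1+ cells were sorted from the tumours 7 days after transfer. For sgElovl1 replicates 1 and 2, RNA from 2 tumours was mixed before sequencing, and each such pool is counted here as 1 library. The labels state instead that cells of different mice were kept apart. The genotype label of all 6 samples speaks of transduction with a CRISPR library, whereas the protocol names single guides. The labels give no age for the mice and no batch.

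MHC class II molecules present peptides from endocytosed proteins to CD4 T cells. An alpha and a beta chain form the molecule (H2-Aa with H2-Ab1 make I-A), the invariant chain Cd74 guides it through the cell, and the H2-DM and H2-O proteins govern peptide exchange. The coactivator Ciita switches these genes on through factors bound to the X and Y boxes of their promoters. Dendritic cells, macrophages and B cells express them constitutively or on activation, whereas mouse T cells, unlike human ones, make little class II. C57BL/6 mice carry the b haplotype, which has no functional H2-Ea alpha chain to pair with H2-Eb1. Among the dendritic lineage genes, Zbtb46 marks conventional dendritic cells and their precursors, Flt3 is their growth factor receptor, Itgax encodes CD11c, and Batf3 and Xcr1 mark the type 1 subset that cross-presents antigen. Itgax, Batf3 and the costimulatory ligand gene Cd80 are also known in activated T cells.

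The promoters of H2-Aa and H2-Eb1 are shown because these 2 genes had the largest fold differences among the class II genes, beside H2-Ob, which held the same arrangement of letters and had a smaller difference. Each line gives 140 bases from RefSeq on GRCm38.p6, written 5′ to 3′ on the gene's strand and ending 11 bases before the start of transcription. Capitals mark a match to GNAAC, taken for the core of the X box, and to GATTGG, the Y box. The positions are chr17:34287834-34287973 on the minus strand for H2-Aa, chr17:34305717-34305856 on the plus strand for H2-Eb1, and chr17:34238755-34238894 on the plus strand for H2-Ob.
H2-Aa: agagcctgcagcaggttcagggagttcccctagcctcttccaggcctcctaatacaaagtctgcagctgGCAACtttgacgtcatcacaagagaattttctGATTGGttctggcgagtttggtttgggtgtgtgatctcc
H2-Eb1: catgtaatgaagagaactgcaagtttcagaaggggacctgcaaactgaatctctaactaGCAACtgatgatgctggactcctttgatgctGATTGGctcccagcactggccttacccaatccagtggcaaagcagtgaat
H2-Ob: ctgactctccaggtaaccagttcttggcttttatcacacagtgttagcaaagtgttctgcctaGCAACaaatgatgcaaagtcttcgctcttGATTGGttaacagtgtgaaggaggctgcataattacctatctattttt
Between the marked letters lie 27 bases in H2-Aa, 26 in H2-Eb1 and 24 in H2-Ob. Over both strands, GNAAC occurred in 58.7% and GATTGG in 10.5% of 32851 promoter windows of the same length. GNAAC followed by GATTGG after 20 to 40 bases occurred in 0.606% of them. Of the 7 listed genes present in the promoter table, H2-Aa and H2-Eb1 held this pair, and Zbtb46, Flt3, Itgax, Xcr1 and Batf3 did not. The pair was chosen with these promoters in view and describes letters only.

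Total expected counts ran from 21980273 to 26165380 per library. Elovl1 itself, the gene that the guide targets, stood at 81.4, 76.6 and 95.2 CPM (counts scaled to a library of 1e6) in sgElovl1 replicates 1 to 3 and at 283, 279 and 254 CPM in sgNT, as the labels have it (log2 fold change -1.69, SE 0.12, adjusted p = 8.71e-05, edgeR quasi-likelihood test). Fold changes are sgElovl1 over sgNT, and a gene is called at an adjusted p under 0.05 over all 12546 genes tested. Of these, 13.8% were called, 8.64% as higher and 5.13% as lower in sgElovl1. T cell transcripts dominated, since 8 T cell markers summed to 9990 to 10800 CPM in sgElovl1 and 11500 to 11800 CPM in sgNT. The third library of each group stood apart from the others by its tumour epithelium transcripts: 7 epithelial markers summed to 334 CPM in sgElovl1 replicate 3 and 1020 CPM in sgNT replicate 3, against 37.1 to 52.4 CPM elsewhere.

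Several transcripts that define dendritic cells were at or near 0 in these libraries, and others were low but present. Flt3 had expected counts of 1, 1 and 0 in sgElovl1 and of 2, 0 and 0 in sgNT. Clec9a, which defines type 1 dendritic cells, had at most 2 counts in any library, as did Siglech of plasmacytoid cells and Fscn1 of mature migratory cells, while Lamp3 had none in all 6. A floor of 3 counts corresponds to 0.109 to 0.137 CPM, so dendritic cells were not detectable through these 5 genes at this depth. Other markers, named after their values were seen, lay at or above that floor in sgElovl1, higher than in any sgNT library, but did not pass the filter: the chemokine gene Ccl17 had 9, 6 and 13 counts in sgElovl1 and 1, 2 and 2 in sgNT. Ccl22 had 5, 3 and 14 against 1, 1 and 2 counts, Sirpa 19, 10 and 38 against 5, 1 and 2, and Klk1 15, 8 and 8 against 2, 2 and 1. Il12b reached 28 counts in sgElovl1 replicate 3, and Cadm1 and Tlr3 reached 77 and 23 counts in sgNT replicate 3. Of 40 dendritic cell genes over 5 lists, 8 had fewer than 3 counts in every library and 21 were not tested. The values of Zbtb46, Batf3, Itgax and Xcr1 are given under the genes' own names, and the cells that these transcripts came from were not tested.

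The 4 class II genes of the list had higher means in sgElovl1, by 2.09-fold for H2-Ab1 and by 4.17- to 4.75-fold for Cd74, H2-Eb1 and H2-Aa. The main edgeR test without pairing called none of the 4, and all 4 were called once the replicate number was a term in the fit. That pairing is a hint from correlations within these same data (0.21, 0.24 and 0.41), since the labels name no shared litter or day. Calls that need the block rest on this hint. DESeq2 and limma-voom, without pairing, called H2-Aa and H2-Eb1. Zbtb46 and Batf3 were called in both fits, by 2.39- and 3.88-fold. Itgax, Xcr1 and Ciita were called in neither. In all, 2 of the 9 tested genes were called, both higher (22.2%, against 8.64% of all genes tested), and 6 of 9 with the replicate block. Batf3 met the filter through sgElovl1, with 2 of 3 sgNT libraries above its level, so these shares are descriptions. Over the whole table the block called 1676 genes, 1119 of them higher in sgElovl1.

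**Figure D1:**
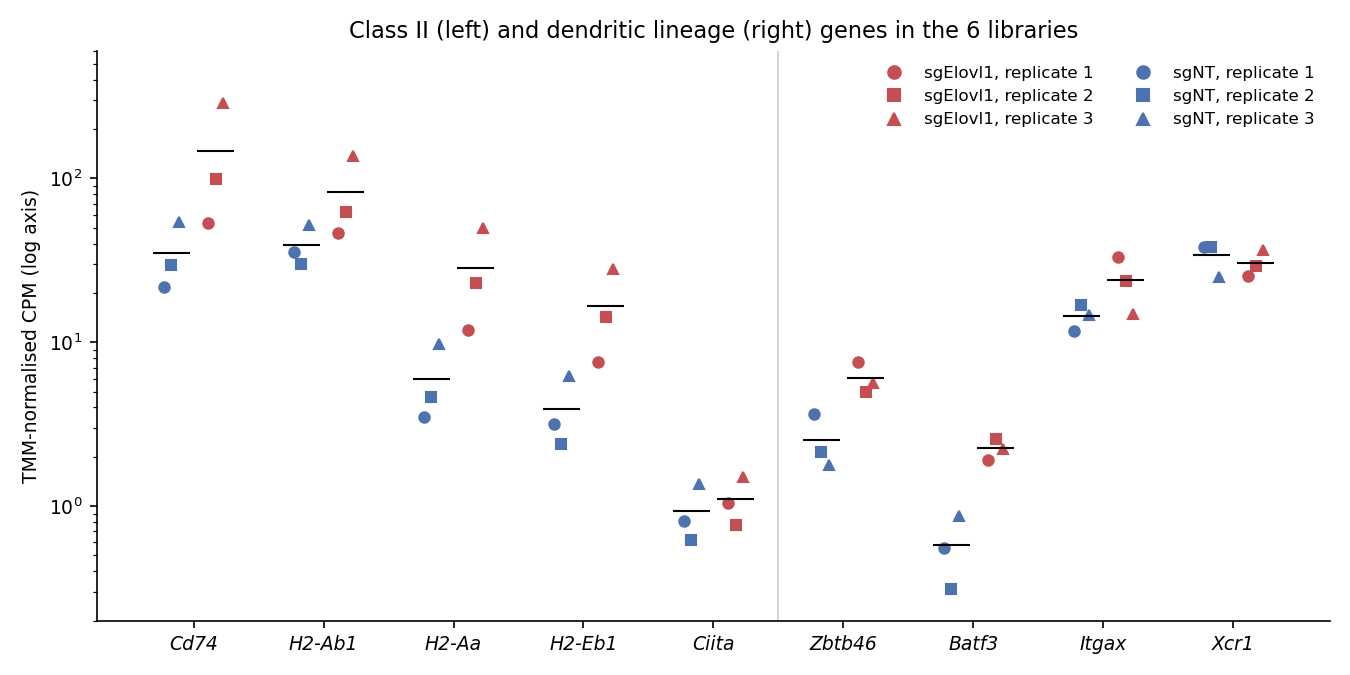
TMM-normalised CPM on a log axis for 9 of the 10 genes in each of the 6 libraries; point shape gives the replicate number, colour the guide, and the black line the mean of 3 libraries. H2-Aa, H2-Eb1, Zbtb46 and Batf3 do not overlap between the groups, and replicate 3 is the highest library of its group for Cd74, H2-Ab1, H2-Aa and H2-Eb1. Flt3, with at most 2 counts, is not drawn.

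H2-Aa, the alpha chain of I-A, is encoded at chr17:34282744-34287823 (GENCODE M21 on GRCm38, minus strand), just downstream of the promoter shown above. It measured 11.9, 22.9 and 49.9 CPM in sgElovl1 replicates 1 to 3 and 3.49, 4.60 and 9.71 CPM in sgNT. Every sgElovl1 library lay above every sgNT library, and the sgElovl1 values themselves spanned a wide range. Group means came to 28.3 ± 19.5 against 5.93 ± 3.32 CPM (SD, n = 3 per group), and the log2 fold change was 2.25 (95% interval 0.31 to 4.19, adjusted p = 0.117, edgeR quasi-likelihood test). With the replicate block the adjusted p was 0.000896. DESeq2 gave an adjusted p of 0.0155 and limma-voom 0.0437. Over all 14 alternatives the adjusted p ran from 0.000683 to 0.275, and H2-Aa was called in 5 of them.

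H2-Eb1, the beta chain of I-E (chr17:34305867-34316674, plus strand), measured 7.58, 14.2 and 28.0 CPM in sgElovl1 and 3.15, 2.38 and 6.20 CPM in sgNT. The groups again did not overlap, with sgNT replicate 3 just under sgElovl1 replicate 1. The log2 fold change was 2.08 (95% interval 0.50 to 3.66, adjusted p = 0.0879, edgeR), and the adjusted p was 0.00329 with the replicate block. It was 0.0149 with DESeq2 and 0.0441 with limma-voom, and ran from 0.00223 to 0.218 over the 14 alternatives. No overlap with the higher values in sgElovl1 was seen for 4 of the 9 tested genes (H2-Aa, H2-Eb1, Zbtb46 and Batf3), and for 19.4% of all genes tested. Of these, Batf3 met the filter through sgElovl1.

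H2-Ab1, the beta chain of I-A (chr17:34257689-34269419, plus strand), measured 46.5, 62.3 and 137 CPM in sgElovl1 and 35.7, 30.0 and 51.7 CPM in sgNT. Here the groups overlapped, since sgNT replicate 3 exceeded sgElovl1 replicate 1. The log2 fold change was 1.06 (95% interval -0.24 to 2.37, adjusted p = 0.222, edgeR) and fell to 0.47 without sgElovl1 replicate 3. With the replicate block the adjusted p was 0.0158, and it ran from 0.00629 to 0.413 over the 14 alternatives.

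Cd74, the invariant chain gene on chromosome 18, measured 53.4, 98.9 and 287 CPM in sgElovl1 and 21.8, 29.5 and 53.8 CPM in sgNT. The lowest sgElovl1 library and the highest sgNT library were nearly equal, and sgElovl1 replicate 3 held most of the group's reads. The log2 fold change was 2.06 (95% interval -0.16 to 4.28, adjusted p = 0.176, edgeR), with an adjusted p of 0.00255 with the replicate block and a range of 0.00195 to 0.361 over the 14 alternatives. Without sgElovl1 replicate 3 the log2 fold change was 1.12.

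Summed over H2-Aa, H2-Ab1, H2-Eb1 and Cd74, the class II level (CPM of the library total, without TMM) was 126, 209 and 499 in sgElovl1 and 62.4, 65.3 and 115 in sgNT. All sgElovl1 libraries were above all sgNT libraries, with means of 278 ± 196 and 80.9 ± 29.5 CPM (SD, n = 3 each), a ratio of 3.44. An exact two-sided permutation test gave p = 0.1, the smallest that 3 libraries against 3 allow. As a log2 ratio of the means the difference was 1.78, and it was 1.05 when sgElovl1 replicate 3 was left out and 1.39 when replicate 3 of sgElovl1 and replicate 3 of sgNT were left out together. With those 2 libraries removed, H2-Aa, H2-Ab1 and H2-Eb1 were called without pairing, at adjusted p of 0.00438, 0.00629 and 0.00223, and Cd74 had an adjusted p of 0.0868 (edgeR). In bulk RNA, more cells of a type and more RNA per cell cannot be told apart.

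**Figure D2:**
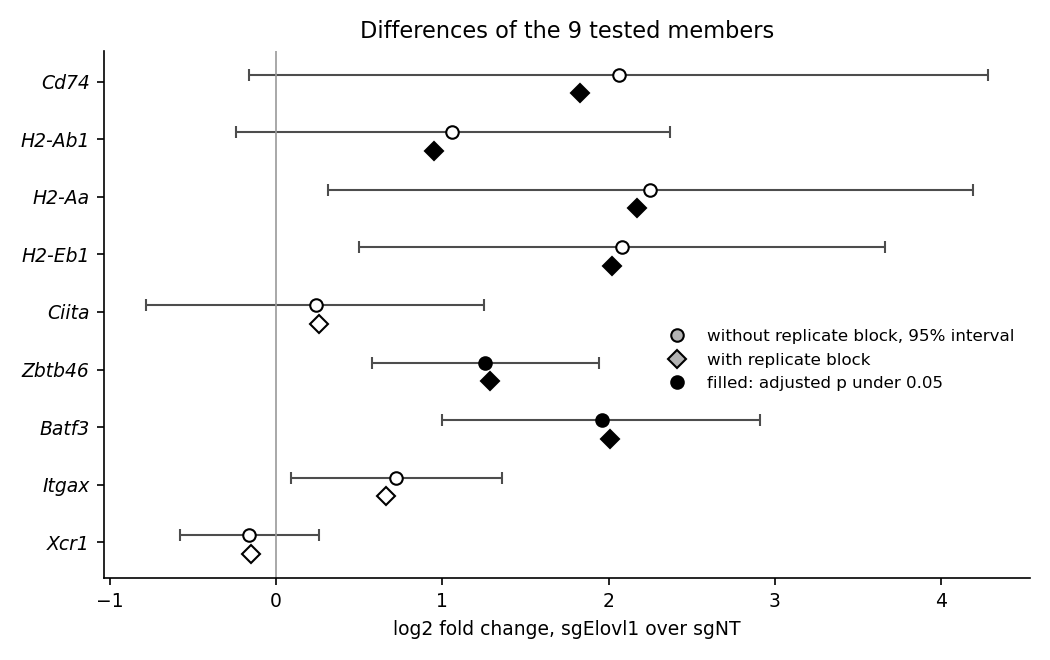
Log2 fold change of sgElovl1 over sgNT for the 9 tested genes. Circles with 95% intervals come from the fit without a replicate block and diamonds from the fit with it; filled symbols have an adjusted p under 0.05. The estimates of both fits lie close together for each gene, and Cd74, H2-Ab1, H2-Aa and H2-Eb1 are filled only with the block.

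The ratios to H2-Ab1 lay apart between the groups, although no ratio passed the test that 3 libraries against 3 allow. Per length, on the TPM scale (transcript shares corrected for length), sgNT libraries held much more H2-Ab1 than H2-Aa, although both chains are needed for I-A. H2-Aa per H2-Ab1 was 0.277, 0.397 and 0.371 in sgElovl1 and 0.0975, 0.144 and 0.180 in sgNT, without overlap (exact two-sided permutation p = 0.1, 0.14 after adjustment over 7 of the values tested in this way). H2-Eb1 per H2-Ab1 was 0.222 to 0.267 in sgElovl1 and 0.0875 to 0.137 in sgNT, with the same p. Cd74 per H2-Ab1 was 1.13 to 1.96 and 0.530 to 0.928, again with the same p. Between the other genes the groups overlapped, as H2-Eb1 per H2-Aa was 0.649 to 0.803 in sgElovl1 and 0.608 to 0.973 in sgNT (exact permutation p = 0.7). Cd74 per H2-Aa was 3.95 to 5.27 and 5.17 to 6.13 (exact permutation p = 0.2, 0.233 adjusted). Permutation p-values were also computed for other ratios, weighted lengths and summed levels, and the adjustment leaves these out.

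The transcript mix of H2-Ab1 differed in the same libraries. RSEM reports a length for each gene weighted by its estimated isoforms, and the longest annotated H2-Ab1 transcript, which is protein coding, has 1212 bases. The weighted length was 1202, 1197 and 1143 bases in sgElovl1 and 1085, 1078 and 1103 bases in sgNT. All 3 sgNT libraries were thus further from the full-length transcript than any sgElovl1 library (exact two-sided permutation p = 0.1, 0.14 adjusted). The shorter annotated transcripts of H2-Ab1 include retained-intron forms of 515 to 1169 bases, and the gene table does not say which of them took the reads.

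**Figure D3:**
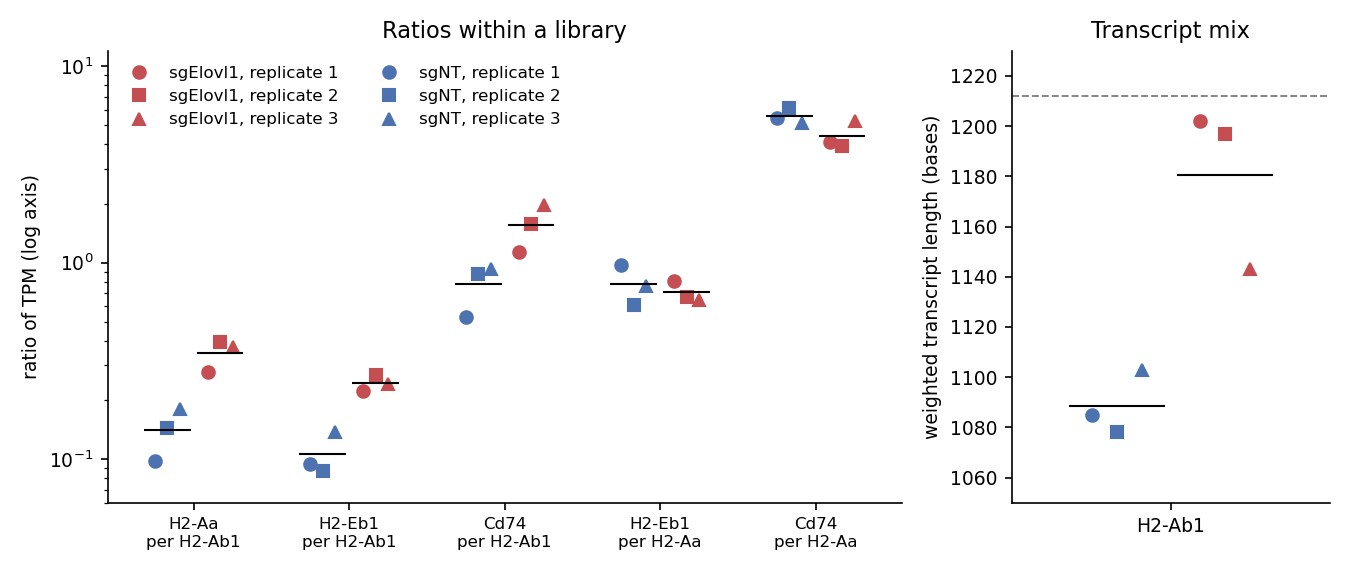
Left, ratios of TPM between pairs of class II genes in each library, on a log axis; right, the weighted transcript length of H2-Ab1 in bases on an axis that does not start at 0, with the longest annotated transcript (1212 bases) as a dashed line. Point shape gives the replicate number, colour the guide, and black lines the mean of 3 libraries. The groups lie apart in the 3 ratios to H2-Ab1 and in length, and overlap in the 2 ratios to H2-Aa.

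Ciita, the master coactivator of these genes, was scarcely transcribed: 1.04, 0.764 and 1.51 CPM in sgElovl1 and 0.809, 0.623 and 1.36 CPM in sgNT. The groups overlapped throughout, and the log2 fold change of 0.24 (95% interval -0.78 to 1.25, adjusted p = 0.76, edgeR) leaves room for a change of either sign. Its 16 to 33 expected counts per library limit the precision. Ciita (chr16:10480059-10528418) overlaps Dexi on the opposite strand, which had 511 to 727 counts, and the strand setting of the counting is not given in the sources used here, so the assignment of reads in the overlapping stretch is uncertain.

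The rest of the class II pathway was not called. Of 23 genes for class II chains, peptide loading, transcriptional control and antigen processing, members included, 20 were tested and edgeR called 0, with 5 at an unadjusted p under 0.05. DESeq2 and limma-voom each called 2 of them (H2-Aa and H2-Eb1), and 6 were called with the replicate block. The median log2 fold change of the 20 was 0.20, beside 0 for all genes tested, with 14 above 0 and 6 below. By part of the pathway, the median was 1.06 over 9 structural genes, all above 0, and -0.01 over 11 genes of control and processing.

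Among the loading genes, the chaperone gene H2-DMa was abundant and nearly level, at 49.3 ± 4.54 CPM in sgElovl1 and 45.0 ± 5.06 CPM in sgNT (SD, n = 3 each; log2 fold change 0.13, 95% interval -0.14 to 0.40). Its partner H2-DMb1 was far lower and followed the class II chains, at 1.54, 3.71 and 8.31 CPM in sgElovl1 and 0.639, 1.68 and 3.64 CPM in sgNT. The groups overlapped (log2 fold change 1.18, adjusted p = 0.373, edgeR), and the adjusted p was 0.0244 with the replicate block. H2-DMb1 and H2-DMb2 are near-identical copies whose counts RSEM split into fractions, so their separate values are uncertain. The genes of the H2-DM inhibitor were near level, with log2 fold changes of 0.11 for H2-Oa (adjusted p = 0.737) and, for H2-Ob, whose promoter is printed above, of 0.35 (adjusted p = 0.514, edgeR). H2-Ea-ps had no count in any library.

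The control and processing genes with the highest levels stayed close between the groups. Ctss, cathepsin S, which trims the invariant chain, stood at 107 ± 26.9 and 108 ± 6.94 CPM in sgElovl1 and sgNT (SD, n = 3 each). The Y box subunit genes Nfyb and Nfyc differed by -0.16 on the log2 scale (adjusted p = 0.482) and -0.26 (adjusted p = 0.111, edgeR). Lgmn, a lysosomal endopeptidase gene and the only one of these 11 called with the replicate block, is named after its values were seen. It had 26, 109 and 237 counts in sgElovl1 and 7, 9 and 78 in sgNT (log2 fold change 2.02, adjusted p = 0.376, and 0.011 with the block). In sgNT 1 of 3 libraries was above the filter's level, so Lgmn met the filter through sgElovl1.

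The class II genes sit in a 249 kb stretch between H2-Oa and H2-Eb2 (chr17:34092340-34341412), chosen after the values were seen, in which 14 of 21 annotated genes were tested. The antigen processing genes of class I in that stretch had fold changes of the other sign: -0.33 for Psmb9, -0.40 for Psmb8, -0.24 for Tap1 and -0.29 for Tap2 on the log2 scale, at adjusted p of 0.0728 to 0.172 (edgeR). The 1 gene called without pairing was Brd2, a chromatin reader gene that overlaps H2-DMa and rose by 0.73 on the log2 scale (adjusted p = 0.00517, edgeR). The genes of the stretch thus did not share a sign.

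Zbtb46 (chr2:181387762-181459426, minus strand), a zinc finger transcription factor gene, rose 2.39-fold in sgElovl1. It measured 7.54, 4.99 and 5.62 CPM in sgElovl1 and 3.66, 2.14 and 1.78 CPM in sgNT. The lowest sgElovl1 library stood above the highest sgNT library, and replicate 1 was the highest of each group, not replicate 3 as for the class II genes. The log2 fold change was 1.26 (95% interval 0.58 to 1.94, adjusted p = 0.0246, edgeR; 0.0143 with the replicate block). It was not called without sgElovl1 replicate 1 (adjusted p = 0.119), sgElovl1 replicate 2 (0.0762), sgNT replicate 2 (0.115) or sgNT replicate 3 (0.0603), and stayed at 1.07 or more in each of them. With replicate 3 of sgElovl1 and of sgNT left out together, it was 1.11 (adjusted p = 0.0234).

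Batf3 (chr1:191097847-191108945, plus strand), a basic leucine zipper factor gene, rose 3.88-fold from a very low level. It had 50, 71 and 49 expected counts in sgElovl1 and 13, 8 and 21 in sgNT, or 1.92, 2.58 and 2.24 CPM against 0.553, 0.312 and 0.868 CPM. The groups were well apart and the sgElovl1 libraries were close to each other. The log2 fold change was 1.96 (95% interval 1.00 to 2.91, adjusted p = 0.0162, edgeR; 0.0268 with the replicate block). In sgNT 2 of 3 libraries were above the filter's level, so Batf3 met the filter through sgElovl1. It was not called without sgElovl1 replicate 1 (adjusted p = 0.0616), sgElovl1 replicate 2 (0.116), sgNT replicate 1 (0.0598) or sgNT replicate 2 (0.072), with log2 fold changes of 1.67 or more.

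Itgax (chr7:128129547-128150657, plus strand), which encodes the integrin chain CD11c, measured 33.0, 23.7 and 14.8 CPM in sgElovl1 and 11.7, 16.9 and 14.7 CPM in sgNT. Replicates 1 and 2 of sgElovl1 lay above all of sgNT and replicate 3 lay inside it, the reverse of the order seen for the class II genes. The log2 fold change was 0.72 (95% interval 0.09 to 1.36, adjusted p = 0.115, edgeR). DESeq2 called it (adjusted p = 0.0409), as did edgeR without sgElovl1 replicate 3 (log2 fold change 0.97, adjusted p = 0.0122), and the adjusted p ran from 0.0104 to 0.337 over the 14 alternatives.

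Xcr1 (chr9:123852315-123862029, minus strand), the receptor of the chemokine Xcl1, had overlapping levels: 25.2, 29.1 and 36.6 CPM in sgElovl1 and 38.3, 38.3 and 25.0 CPM in sgNT. The ranges overlapped almost fully, and the 95% interval of the log2 fold change of -0.16 ran from -0.58 to 0.26 (adjusted p = 0.598, edgeR). The third library of each group departed from the other two in opposite ways, and without both of them Xcr1 was called as lower in sgElovl1 (log2 fold change -0.50, adjusted p = 0.0102). Over the 14 alternatives the adjusted p ran from 0.0102 to 0.936. Xcr1 stood at 25.0 CPM or more in every library, and Clec9a, its usual companion in type 1 dendritic cells, had at most 2 counts. The cell source of the Xcr1 transcripts was not tested.

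Ordered by mean TPM, the genes ran in sgElovl1 from Cd74 (165 ± 135) and H2-Ab1 (97.0 ± 57.7) through H2-Aa (35.0 ± 23.2) and H2-Eb1 (23.7 ± 14.0) to Xcr1 (7.58 ± 1.26), Itgax (6.88 ± 2.78), Batf3 (4.68 ± 0.756), Zbtb46 (2.55 ± 0.562) and Ciita (0.257 ± 0.107; SD, n = 3). In that order the ranges of neighbours overlapped from Cd74 to H2-Eb1 and from Xcr1 to Batf3. In sgNT H2-Ab1 (48.4 ± 10.6) and Cd74 (38.4 ± 16.3) led, and their ranges overlapped. Xcr1 (8.18 ± 2.20), H2-Aa (6.99 ± 3.40), H2-Eb1 (5.34 ± 2.55) and Itgax (4.03 ± 0.689) followed, each overlapping the next, then Batf3 (1.20 ± 0.386) overlapping Zbtb46 (0.983 ± 0.317), then Ciita (0.167 ± 0.0643; SD, n = 3). Xcr1 ranked above H2-Aa and H2-Eb1 in sgNT and below them in sgElovl1.

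The wider dendritic cell lists are counted here with the members included. Of 40 genes, 19 were tested and 4 were called, all higher in sgElovl1 (21.1%, against 8.64% of all genes tested): Zbtb46, Batf3, Cd80 and Dpp4. Batf3 met the filter through sgElovl1. The median log2 fold change of the 19 was 0.37, beside 0 for all genes. Without the members, 2 of 15 tested genes were called (13.3%), and the median was 0.05. Cd80, a ligand of CD28, was the steadiest, at 15.6, 14.9 and 19.4 CPM in sgElovl1 and 6.64, 7.29 and 7.31 CPM in sgNT. It was called in all 14 alternatives (log2 fold change 1.23, SE 0.17, adjusted p = 0.00208, edgeR). Dpp4, the peptidase CD26, rose from 57.0 ± 2.69 to 85.5 ± 7.70 CPM (SD, n = 3 each; adjusted p = 0.00973, edgeR). It was not called with an offset for gene length (log2 fold change 0.29 in place of 0.59, adjusted p = 0.0902) or without sgElovl1 replicate 1 or 2 (0.0508 and 0.0706).

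Most other tested genes of those lists were expressed at like levels in both groups. Cst3, Cd86 and Irf8, at 66.7 CPM or more on average in both groups, had log2 fold changes of -0.02, -0.14 and -0.24 (adjusted p of 0.946, 0.54 and 0.226, edgeR). Cd83, a maturation marker that activated T cells also make, was higher in every sgElovl1 library, at 73.5, 87.2 and 52.5 CPM against 49.7, 49.6 and 20.3 CPM in sgNT. Its log2 fold change was 0.84 (adjusted p = 0.23, edgeR), and the adjusted p was 0.0107 with the replicate block. On the log2 scale, the difference was -0.86 for the lectin gene Clec10a (adjusted p = 0.0546) and 0.96 for the integrin gene Itgam (adjusted p = 0.0808, edgeR). The remaining genes named by rule, Csf2rb, Naaa, Irf4, Bst2, Ccr9 and Tcf4, had adjusted p of 0.0591 to 0.942. Clec10a and Ccr9 were lower in every sgElovl1 library than in any sgNT library. DESeq2 called both as lower, at adjusted p of 0.0319 and 0.0452. Of the 19 tested dendritic cell genes, 6 were higher and 2 lower in sgElovl1 without overlap.

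Of the partner genes of the members, 10 of 11 were tested, with 2 lower and 0 higher in sgElovl1, against 5.13% and 8.64% of all genes tested. Batf, a T cell relative of Batf3 that can take its place, measured 94.8, 102 and 90.1 CPM in sgElovl1 and 143, 182 and 136 CPM in sgNT, the direction opposite to Batf3 (log2 fold change -0.68, SE 0.13, adjusted p = 0.00934, edgeR). It was not called without sgNT replicate 2 (adjusted p = 0.0562). Irf1, an interferon-induced factor gene that acts upstream of Ciita, fell by 0.38 on the log2 scale (adjusted p = 0.0479, edgeR), a call lost with the replicate block (adjusted p = 0.0711) and in most other alternatives. Xcl1, the ligand of Xcr1, measured 662, 406 and 293 CPM in sgElovl1 and 301, 301 and 233 CPM in sgNT. Its log2 fold change was 0.70 (adjusted p = 0.16, edgeR; 0.0429 with the replicate block). Itgb2, whose product pairs with CD11c, differed by -0.20 on the log2 scale (adjusted p = 0.268, edgeR).

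Macrophage transcripts moved with the class II genes. Of 12 macrophage markers, 9 were tested, 8 of them above 0, with 3 called as higher and a median log2 fold change of 3.10; 8 were called with the replicate block. The 3 called genes, Adgre1, C1qa and Fcgr1, had 0, 1 and 0 sgNT libraries above the filter's level. They were tested only because of their level in sgElovl1. Csf1r, C1qb and C1qc, with 1, 2 and 2 such sgNT libraries, also met the filter through sgElovl1. The counts of calls, with and without the block, and the median are therefore descriptions. The summed level of the 12 markers was 98.4 to 294 CPM in sgElovl1 and 41.1 to 62.5 CPM in sgNT, and none of the 12 was at 0 in all libraries. C1qa, a complement gene of tissue macrophages, had 33, 87 and 140 counts in sgElovl1 and 9, 2 and 17 in sgNT, in the same library order within sgElovl1 as the class II genes (log2 fold change 3.21, adjusted p = 0.038, edgeR). C1qa was called in 8 of the 14 alternatives, over which the adjusted p ran from 9.39e-05 to 0.144. Adgre1, which encodes F4/80, had 26, 19 and 68 counts in sgElovl1 and none in sgNT, at least 13-fold higher against a floor of 3 counts per library (adjusted p = 0.006, edgeR). C1qb and C1qc had adjusted p of 0.22 and 0.115 (edgeR), and of 0.00295 and 0.00141 with the block. Lyz2, the most abundant of the list in sgElovl1, stood at 96.7 ± 55.3 and 7.90 ± 6.50 CPM (SD, n = 3 each; log2 fold change 3.61, adjusted p = 0.0958, edgeR; 0.0116 with the block). Cd68, the most abundant in sgNT, had the other sign (log2 fold change -0.34, adjusted p = 0.159, edgeR). The part of macrophage RNA in the class II differences was not tested.

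The counts of the class II genes per count of the complement genes varied between the libraries. The 4 class II genes had 25.9, 11.9 and 11.0 counts for each count of C1qa, C1qb and C1qc together in sgElovl1, and 53.8, 56.9 and 22.8 in sgNT. For H2-Aa alone the values were 2.58, 1.38 and 1.10 in sgElovl1 and 2.93, 3.93 and 1.82 in sgNT, and for H2-Ab1 alone they were 10.1, 3.75 and 3.00 against 30.0, 25.7 and 9.70. Replicates 1 and 2 of sgNT had more H2-Ab1 per C1q count than any sgElovl1 library, and in both groups replicate 3 had the least. Between the groups, the exact permutation p was 0.2 for each of these ratios. In sgNT replicates 1 and 2 they rest on few counts: 9 and 2 for C1qa, 12 and 10 for C1qb, and 7 and 18 for C1qc.

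**Figure D4:**
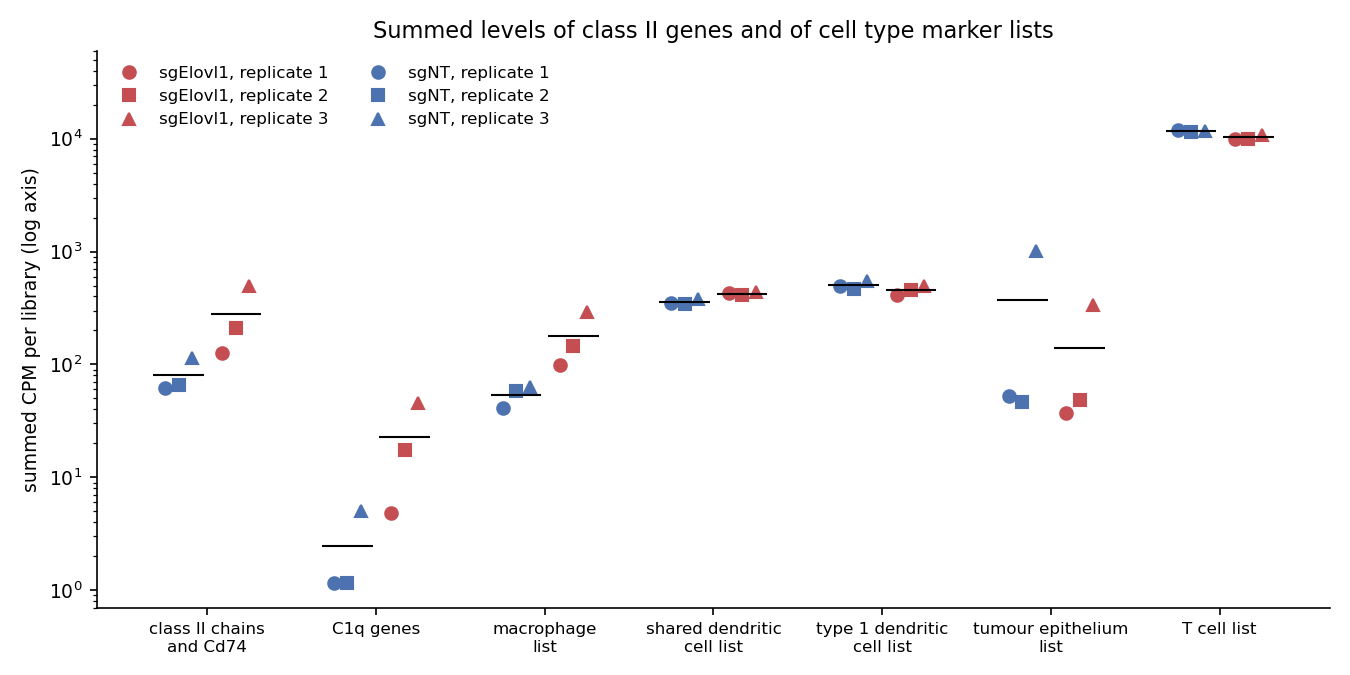
Summed CPM per library, on a log axis, of H2-Aa, H2-Ab1, H2-Eb1 and Cd74 and of marker lists; point shape gives the replicate number, colour the guide, and black lines the mean of 3 libraries. The class II genes, the C1q genes and the macrophage list have higher means in sgElovl1 and are highest in replicate 3, the type 1 dendritic cell list overlaps between groups, and the tumour epithelium list is highest in the third library of each group. The shared dendritic cell list is higher in sgElovl1 without overlap (413 to 434 against 342 to 377 CPM).

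Of 8 B cell markers, Pax5 had no count in any library, 1 was tested and 0 were called by edgeR (0 at an unadjusted p under 0.05), and the summed level was 6.32 to 9.71 CPM in sgElovl1 and 7.26 to 7.92 CPM in sgNT. Of 6 neutrophil markers, Csf3r alone was tested and called, with 14, 13 and 24 counts in sgElovl1 and none in sgNT, at least 5.71-fold higher against the floor (adjusted p = 0.00787, edgeR). No sgNT library was above the filter's level for Csf3r, so it was tested only because of its level in sgElovl1. The 7 tumour epithelium genes all had values below 0, with a median log2 fold change of -1.61, and none was called in the main edgeR test (0 at an unadjusted p under 0.05). With the replicate block 1 of them, Epcam, was called as lower (log2 fold change -0.54, adjusted p = 0.0412, edgeR). Of 5 endothelial markers, 8 acinar and 6 fibroblast markers, 2, 4 and 0 were tested and edgeR called none, with 0, 1 and 0 at an unadjusted p under 0.05. The 8 T cell markers included 3 called as lower (Cd8a, Cd8b1 and Cd247) and 1 as higher (Cd3e), of which Cd8a fell by 0.45 on the log2 scale (adjusted p = 0.0346, edgeR). With the replicate block, Cd247 and Cd3e were not called (adjusted p of 0.0689 and 0.0614). Of the 3 CD4 T cell markers, Cd40lg was called as higher (log2 fold change 2.07, adjusted p = 0.0121) and Foxp3 as lower (-1.67, adjusted p = 0.0201, edgeR), and Cd4 had 30 counts or fewer in every library. In sgNT 2 of 3 libraries were above the filter's level for Cd40lg, so it met the filter through sgElovl1. The most abundant markers of the other lists in sgElovl1 were Krt8 of the epithelium (log2 fold change -1.61, adjusted p = 0.688), Prss2 of acinar cells (0.20, adjusted p = 0.652), Pecam1 of endothelium (0.23, adjusted p = 0.332) and Cd79b of B cells (-0.09, adjusted p = 0.805, edgeR).

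The genes whose pattern over the 6 libraries lay nearest to the class II genes were Cfp, Ly6i, Ccl6, Plbd1 and Kit. Likeness was the root mean square difference, in log2 CPM centred on each gene's mean, from the average of H2-Aa, H2-Ab1, H2-Eb1 and Cd74. It was 0.23 for Cfp, which encodes properdin, 0.28 for Ly6i, 0.31 for the chemokine gene Ccl6 (adjusted p = 0.0936, and 0.00188 with the replicate block, edgeR), 0.40 for Plbd1 and 0.41 for Kit, the stem cell factor receptor gene. Cfp measured 1.88, 2.91 and 6.62 CPM in sgElovl1 and 0.596, 0.584 and 1.03 CPM in sgNT. Kit measured 7.69, 8.26 and 13.0 CPM in sgElovl1 and 3.11, 2.84 and 5.04 CPM in sgNT. Replicate 3 was the highest library of each group in both genes, as in the class II genes. Both genes were chosen for this likeness, so the shared order is no separate finding.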

How the data were processed

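Bulk RNA was sequenced from 6 libraries of CD90.1+ OT-I cells, 3 per guide, grouped by the titles. Per the submitters' processing notes, the authors used STAR 2.7.7a, mm10, RSEM 1.3.1 and DESeq2 1.36.0, after SMARTer pre-amplification; the annotation release is not given in the sources used here. The deposited expected counts are unscaled estimates of reads per gene and were rounded for all tests. The deposited TPM are length-scaled shares, used for levels between genes and in 1 alternative. Of 55471 gene IDs, 55230 matched a GENCODE M21 symbol. Totals were 21980273 to 26165380 counts, and floors of 3 counts cover counting error only.

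edgeR 4.0.16 (R 4.3.3; filterByExpr with a minimum count of 10, TMM, robust quasi-likelihood, Benjamini-Hochberg over 12546 genes) was the main test, with the group as its only term. CPM of single genes carry the TMM factors, and summed CPM do not. The procedure was tested on simulated data. DESeq2 1.42.0, limma 3.58.1 (voom; log2(TPM + 1)), no count filter, a replicate block, a gene length offset and leaving out each library were the alternatives; leaving out replicate 3 of both groups, and the length offset with the block, were chosen after seeing the data. Same-numbered libraries deviated together from their group means (correlations 0.21, 0.24 and 0.41, against -0.29 to 0.17 across numbers), so by the rule used here the numbers pair the libraries; this is a hint from the data, since the labels name no shared litter or day. Blocked values are given where they change a call.

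The members, lists and tests were chosen with earlier results of these data known. Named by rule are all members, the called genes and up to 3 more of each class II, dendritic and partner list by mean CPM, and for other cell types the gene with the highest mean in sgElovl1 and called genes, at most 3 per list. The likeness list left out predicted and RIKEN genes, pseudogenes, rRNA and the segments of antigen receptors. Other genes named were chosen after their values were seen. Promoter sequences are from RefSeq on GRCm38.p6. P-values measure the spread between these libraries, 2 of which are pools.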

Additional observations from a re-analysis of the deposited data

How the results depend on the processing

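Counts of calls depended on the replicate spread. Over the whole table, 1727 genes were called in the main edgeR test, 1085 on log2(TPM + 1), 1102 with the length offset and replicate block together, and 3986 without replicate 3 of both groups (321 to 2718 with 1 library left out). The whole-table count was 2306 with DESeq2, 1670 with limma-voom, 1946 without the count filter and 1676 with the replicate block alone. Of the 10 members, 2 were called in the main edgeR test, 5 with DESeq2, 4 with limma-voom, 6 with the replicate block, alone or with the length offset, and 7 without replicate 3 of both groups (0 to 3 with 1 library left out). Of the class II pathway genes, 0 were called in the main edgeR test, 2 with DESeq2 and with limma-voom, 6 with the block, alone or with the length offset, and 6 without replicate 3 of both groups, 4 of them higher. Of the dendritic cell genes, 4 were called in the main edgeR test, 8 with DESeq2, 7 without the count filter and 11 without replicate 3 of both groups (1 to 7 with 1 library left out). Beyond the calls given beside their genes in the report, the replicate block changed no other call among the members and named genes. Elovl1 was called in all 14 alternatives, and the summed class II level stayed higher in sgElovl1 in all 10 of its alternatives, at log2 ratios of 1.05 to 2.13.

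The log2 fold changes that changed sign were called neither in the main edgeR test nor after the change, and all but that of Krt8 (-1.61) lay between -0.10 and 0.24 in the main edgeR test. Ciita was -0.08 with the length offset, -0.07 with the offset and block, and -0.05 to 0.63 with 1 library left out. Ctss was 0.01 without the filter, 0.04 on log2(TPM + 1), 0.14 with the offset, 0.12 with offset and block, and -0.23 to 0.12 with 1 library left out. Cst3 was 0.07 on log2(TPM + 1), 0.06 with the offset, with or without the block, 0.03 without replicate 3 of both groups, and -0.12 to 0.14 with 1 library left out. Csf2rb was -0.21 with the offset, -0.23 with offset and block, and -0.23 to 0.31 with 1 library left out. Naaa was 0.01 with the offset, with or without the block. Bst2 was 0.02 on log2(TPM + 1), 0.00 with the offset, 0.13 without replicate 3 of both groups, and -0.17 to 0.04 with 1 library left out. Cd79b was 0.06 with the offset, 0.05 with offset and block, and -0.18 to 0.05 with 1 library left out. Pecam1 was -0.11 on log2(TPM + 1). With 1 library left out, H2-Oa ran from -0.05 to 0.26 and Krt8 from -4.85 to 2.19, the positive value without sgNT replicate 3. The causes of these shifts were not tested. Genes with few counts, such as Ciita and Flt3, are limited by depth.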
